A study of Mus musculus with 6 samples.

Results

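The genes described here are the ligands and receptors of the FGF, PDGF, VEGF and EGF families, with the related HGF, stem cell factor and angiopoietin pairs, in mouse pre-osteoblasts treated with metformin. They were taken from the expression table by symbol among protein-coding genes, which gave 64 of its 54532 genes, 46 ligands and 18 receptors. Counted with the ligands are 4 FGF genes (Fgf11, Fgf12, Fgf13 and Fgf14) whose products stay inside the cell. The FGF family held 27 of them, the EGF family 14, the VEGF family 8, the PDGF family 7 and the other pairs 8. MC3T3-E1 is a clonal line of mouse pre-osteoblasts that mineralizes under osteogenic supplements. Metformin, a biguanide, is given to lower glucose in diabetes. RNA from cells kept in osteogenic medium (control, 3 samples) was compared with RNA from cells kept in the same medium with metformin (3 samples). The sequenced cells were induced for 3 days and the metformin dose was 0.2 mM, as the paper's text has it, since the labels give neither. Both groups therefore carried the osteogenic supplements, including dexamethasone, and no group without them was analysed here. All samples came from 1 cell line, and the study describes its replicates as biological.

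Most of these receptors are tyrosine kinases that span the cell membrane. A ligand brings receptor chains together, the chains phosphorylate each other, and adaptor proteins then pass the signal to the RAS and ERK cascade and to PI3K and AKT. In bone, FGF receptors govern the growth of the skeleton and the maturation of osteoblasts, PDGF acts mainly on the proliferation and migration of mesenchymal cells, VEGF links bone formation to blood vessels, and EGF ligands act on pre-osteoblast growth. Most EGF ligands and several others are made as membrane proteins that proteases release.

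The values are FPKM, reads per gene scaled by gene length and a size factor per sample, and the whole reads behind them could be recovered. The size factors matched the median ratio of each sample's reads across genes, not the read totals. Totals ran from 18399861 to 22111790 reads per sample, so that 3 reads, the limit that a count of 0 allows, were 1.36e-05% to 1.63e-05% of a sample (counting error only). Control replicate 1 stood apart: across genes its log2 values had Pearson correlations of 0.952 and 0.960 with the other controls, against 0.988 between those and 0.992 for each pair of metformin samples. Its deviation from the other controls followed GC content (Spearman's rho -0.668, across genes). Mitochondrial reads made up 6.36% to 10.01% of the control libraries and 2.72% to 3.16% of the metformin libraries, and their part in the results was not tested. Among the osteoblast markers, 11 of 12 passed the filter on low values, with 3 higher and 2 lower with metformin and a summed level of 11930.5 to 13995 FPKM in controls and 8799 to 9283 FPKM with metformin. The osteoblast transcription factors Runx2 (25.8 to 34.1 FPKM) and Sp7 (36.8 to 54.0 FPKM) were present in every sample and neither was called, while Alpl stood at 2.44 to 3.84 FPKM. At these levels Runx2, Sp7 and Alpl hold a small part of the summed level. The difference between the groups in that sum therefore lies in other markers of the list, which are not named here.

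Markers of other cell types were also counted, because several receptors mark them. Of 8 endothelial markers 1 passed the filter and it was not called, with a summed level of 1.05 to 1.18 FPKM in controls and 1.21 to 1.62 FPKM with metformin and Cldn5 at 0 in every sample. Of 8 haematopoietic and mast cell markers 2 passed and 1 was lower (2.62 to 2.72 against 1.74 to 2.003 FPKM summed, Tyrobp at 0). None of 6 epithelial markers passed, and Epcam, Krt8 and Krt18 were at 0. Of 6 smooth muscle and pericyte markers 3 passed and 1, Acta2, was higher while Myh11 and Rgs5 had at most 5 reads in a sample, with sums of 212 to 288 FPKM in controls and 1204 to 1240 FPKM with metformin. Adipocyte markers (1 of 6 tested, none called, 1.76 to 3.18 against 2.10 to 2.45 FPKM) and chondrocyte markers (4 of 6 tested, 1 lower, 30.7 to 45.0 against 29.7 to 32.4 FPKM) completed the lists. The part of any of these cell types in the results was not tested, and in bulk RNA fewer cells of a type and less RNA per cell cannot be told apart.

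Of the 64 genes, 28 had a mean of at least 0.5 FPKM over the 6 samples and were tested. With metformin 5 of the 28 rose (Ereg, Hbegf, Fgfrl1, Fgfr3 and Nrg1), where 13.2% of all 12681 tested genes did, and 3 fell (Fgfr1, Pdgfra and Fgf18), where 9.28% did. These calls are from limma-trend on log2(FPKM + 1) with a Benjamini-Hochberg adjusted p under 0.05. The shares of the 28 lay near the background, so the counts by themselves say nothing particular about these families. The median log2 fold change was 0.12 for the 28 genes and 0.0053 for all tested genes. All 3 metformin samples lay above all 3 controls for 10 of the 28 (23.6% of all tested genes) and below them for 6 (20.5%). After each library was corrected for GC content, which moved the median of all genes by -0.05, 8 members were higher and 7 lower, with 2062 and 2433 genes in all against 1670 and 1177 without it. Angpt1, Fgf17 and Fgf18 averaged at least 0.5 FPKM in the controls but not with metformin, so they passed the filter only through the group in which they were higher.

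**Figure D1:**
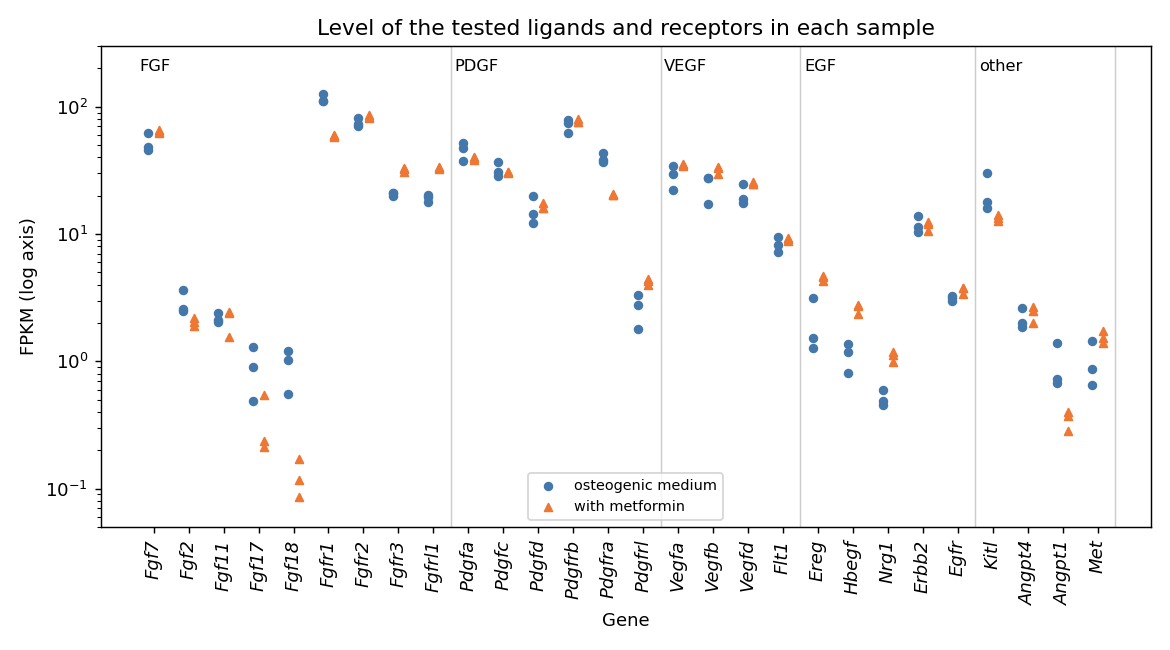
Level of each of the 28 tested ligands and receptors in each sample, in FPKM on a log axis, grouped by family, with circles for osteogenic medium and triangles for osteogenic medium with metformin. Fgfr1 and Pdgfra lie lower in all metformin samples, at 57.3 to 60.4 and 20.1 to 20.8 FPKM, while the 2 groups overlap for Pdgfrb, Pdgfc and Erbb2.

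Among the FGF receptors Fgfr1 fell and Fgfr3 and Fgfrl1 rose. Fgfr1 (chr8:25513654-25575718, GRCm38, plus strand), the receptor of mesenchymal cells for FGF2 and many other ligands, stood at 111.5, 111.5 and 126.9 FPKM in the controls and at 59.2, 60.4 and 57.3 FPKM with metformin, on 11032 to 24625 reads per sample. The groups did not overlap, and the metformin samples lay closer together than the controls. The mean went from 117 ± 8.87 to 59.0 ± 1.52 FPKM (SD, n = 3), 0.506 times the control, with a log2 fold change of -0.97 (SE 0.09, limma-trend adjusted p = 0.000637). Leaving out each sample in turn gave -1.0 to -0.91, and the call held in 6 of 6 fits.

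Fgfr3 (chr5:33721674-33737068, plus strand), the receptor that restrains growth of long bones, read 19.9, 21.1 and 20.8 FPKM in the controls and 33.0, 32.6 and 31.0 FPKM with metformin. Every metformin sample was above every control. The mean was 20.6 ± 0.608 FPKM against 32.2 ± 1.08 FPKM (SD, n = 3), 1.56-fold, and the log2 fold change was 0.62 (SE 0.08, limma-trend adjusted p = 0.00215). Fgfrl1 (chr5:108692382-108706924, plus strand) encodes an FGF receptor that binds ligand and heparin but has no tyrosine kinase domain. Its levels were 17.7, 20.1 and 19.4 FPKM in the controls and 33.2, 33.4 and 32.2 FPKM with metformin, again without overlap. Its mean rose from 19.1 ± 1.23 to 32.9 ± 0.632 FPKM (SD, n = 3), 1.73-fold, with a log2 fold change of 0.76 (SE 0.08, limma-trend adjusted p = 0.0012). Both calls held whichever sample was left out.

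Fgfr2, the FGF receptor that also drives osteoblast maturation, was not called. It stood at 81.4, 72.7 and 70.6 FPKM in the controls and 82.1, 85.8 and 82.8 FPKM with metformin, a log2 fold change of 0.16 (95% interval -0.06 to 0.37, limma-trend adjusted p = 0.258). The metformin samples lay above the controls, by less than 1 FPKM from control replicate 1, and without that control the adjusted p was 0.0173. Fgfr4 had at most 2 reads in a sample. In the controls the order of levels per length was Fgfr1, Fgfr2, Fgfr3, and with metformin it was Fgfr2, Fgfr1, Fgfr3, with no overlap between neighbours in either group.

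**Figure D2:**
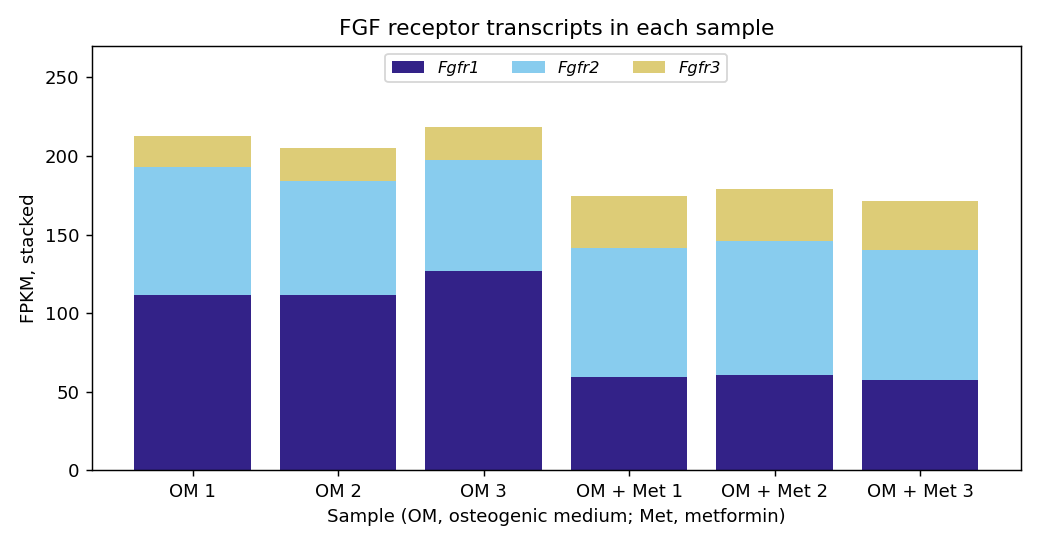
Stacked level of Fgfr1, Fgfr2 and Fgfr3 in FPKM in each of the 6 samples, from 0 (OM, osteogenic medium, and Met, metformin). The Fgfr1 segment is 111 to 127 FPKM in the controls and 57.3 to 60.4 FPKM with metformin, and the Fgfr3 segment is thicker in all metformin samples.

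The make-up of the 4 kinase FGF receptors changed with these levels. Fgfr1 made up 52.4%, 54.3% and 58.1% of their summed FPKM in the controls and 34.0%, 33.8% and 33.5% with metformin. Fgfr2 made up 35.3% ± 2.94 in the controls and 47.8% ± 0.664 with metformin, and Fgfr3 9.72% ± 0.486 and 18.4% ± 0.449 (SD, n = 3). The sum itself was 212.1 ± 6.52 FPKM in the controls and 174.7 ± 3.84 FPKM with metformin (SD, n = 3). Groups did not overlap in any of these values, and an exact permutation test (two-sided, 3 against 3) gave p = 0.1 for each, which is the smallest p this design allows. The same p held after adjustment over the 6 comparisons of this kind. Exons of Fgfr2 overlap those of Ctbp2 on the same strand, and Fgfr3 shares near-identical sequence with G630022F23Rik. The levels, order and shares of these receptors may therefore include reads of other genes, which was not tested.

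Promoter sequences were available for 4 of the 8 called genes and are shown for the 3 receptors and the FGF ligand that changed, to set the sequences of genes that fell beside those of genes that rose. They run from 250 bases before to 50 bases after the annotated start (RefSeq, GRCm38.p6), 5′ to 3′ on the gene's strand. For Fgfr3 the upstream one of its 2 starts is given, and the Fgfrl1 start lies inside the interval of the deposited table. Capitals mark matches to the GC box, GGGCGG on either strand (CCGCCC on the other), which 35.7% of 32851 promoters of this length contain. Pdgfra lies at chr5:75152001-75152300, Fgfr3 at chr5:33721474-33721773, Fgfrl1 at chr5:108693979-108694278 (all plus strand), and Fgf18 at chr11:33147351-33147650 (minus strand).
Pdgfra: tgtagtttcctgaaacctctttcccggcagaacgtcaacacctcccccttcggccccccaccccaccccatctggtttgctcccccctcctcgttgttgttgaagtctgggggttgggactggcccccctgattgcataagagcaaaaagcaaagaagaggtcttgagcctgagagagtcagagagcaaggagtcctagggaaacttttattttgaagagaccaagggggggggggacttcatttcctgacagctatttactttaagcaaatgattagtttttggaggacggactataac
Fgfr3: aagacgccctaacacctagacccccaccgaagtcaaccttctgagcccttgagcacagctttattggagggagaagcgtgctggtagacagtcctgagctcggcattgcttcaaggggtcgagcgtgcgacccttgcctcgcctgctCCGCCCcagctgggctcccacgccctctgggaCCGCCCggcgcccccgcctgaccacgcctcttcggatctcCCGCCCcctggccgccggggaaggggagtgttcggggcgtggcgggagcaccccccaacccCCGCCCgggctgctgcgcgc
Fgfrl1: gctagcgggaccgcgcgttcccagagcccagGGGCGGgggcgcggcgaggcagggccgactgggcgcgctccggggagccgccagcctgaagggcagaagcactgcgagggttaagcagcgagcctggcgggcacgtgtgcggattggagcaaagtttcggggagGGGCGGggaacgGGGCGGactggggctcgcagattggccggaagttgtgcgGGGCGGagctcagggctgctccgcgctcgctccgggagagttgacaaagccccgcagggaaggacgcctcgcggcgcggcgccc
Fgf18: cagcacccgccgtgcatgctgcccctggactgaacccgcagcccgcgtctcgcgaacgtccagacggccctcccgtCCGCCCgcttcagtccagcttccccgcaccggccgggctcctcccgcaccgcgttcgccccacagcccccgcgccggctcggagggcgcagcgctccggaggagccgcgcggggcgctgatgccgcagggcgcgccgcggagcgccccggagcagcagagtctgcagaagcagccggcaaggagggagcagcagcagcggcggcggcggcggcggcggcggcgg

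The Pdgfra window, of a gene that fell, had 51.0% GC, 5 CG dinucleotides and no GC box. The windows of Fgfr3 and Fgfrl1, which rose, had 69.7% and 73.7% GC with 4 GC boxes each. The other Fgfr3 start, whose sequence is not shown, had 73% GC and 2 GC boxes. Fgf18, which fell, had 78.7% GC, 47 CG dinucleotides and 1 GC box, so GC content did not follow the direction of change. Both windows of genes that fell had fewer GC boxes than both windows of genes that rose. With 4 windows this difference was not tested, and Fgf18 passed the filter on low values only through the controls. The median over all promoters was 52.7% GC and 7 CG dinucleotides. The AP-1 site (TGACTCA or TGAGTCA, in 5.20% of all promoters), the CRE (TGACGTCA, in 1.79%) and the TATA box (TATAAA or TTTATA, in 13.6%) were searched on both strands and had no match in the 4 windows. Fgfr1, Ereg, Nrg1 and Hbegf were not in the promoter table.

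Among FGF ligands only Fgf18 was called, and it passed the filter only through the controls, where it was higher. Fgf18 (chr11:33117430-33147400, minus strand), a ligand needed for normal bone and cartilage growth, had 12, 30 and 24 reads in the controls and 4, 3 and 2 reads with metformin, or 0.554, 1.2 and 1.03 FPKM against 0.170, 0.116 and 0.0865 FPKM. All metformin samples were below all controls, at levels near the limit of these depths. The log2 fold change was -0.76 (SE 0.15, limma-trend adjusted p = 0.0138). The summed reads, scaled by size factor, had a ratio of 0.131 with a counting interval of 0.0576 to 0.265. The log2 value was -2.70 with voom on the recovered reads, which has no added 1 FPKM. Without metformin replicate 2 or 3 the adjusted p was 0.0574 and 0.0590. A counting interval, here and below, covers counting error on the pooled reads of a group and leaves out the spread between replicates. Across tested genes that spread was larger than counting error. The median chi-square per gene between replicates of a group was 1.18 to 13.5, against 0.455 for counting alone.

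The FGF ligand with the highest level was Fgf7, keratinocyte growth factor, which mesenchymal cells make for epithelial cells. It had 52.1 ± 9.04 FPKM in the controls and 63.8 ± 2.03 FPKM with metformin (SD, n = 3), with a log2 fold change of 0.30 (95% interval -0.01 to 0.61, limma-trend adjusted p = 0.153), and the groups overlapped through control replicate 1 at 62.4 FPKM. Fgf2, basic FGF and an osteoblast mitogen, had 3.63, 2.57 and 2.48 FPKM in the controls and 2.05, 1.90 and 2.17 FPKM with metformin. Those groups did not overlap, but the log2 fold change of -0.34 had a limma-trend adjusted p of 0.107. Fgf11, an FGF that stays inside the cell, had a log2 fold change of -0.04 (limma-trend adjusted p = 0.867). Fgf17, of the FGF8 subfamily, had 15, 46 and 30 reads in the controls and 8, 20 and 7 reads with metformin, which overlapped (log2 fold change -0.50, limma-trend adjusted p = 0.11). Of the 22 FGF genes that are not receptors, 5 were tested. They were 4 of 18 ligands and 1 of 4 factors that stay inside the cell (Fgf11, Fgf12, Fgf13 and Fgf14). Fgf10 reached 11 reads in control replicate 1 and at most 6 in any other sample, Fgf1, Fgf14, Fgf21, Fgf22 and Fgf23 had fewer than 10 in every sample, and Fgf3, Fgf4, Fgf5, Fgf6, Fgf8, Fgf9, Fgf12, Fgf13, Fgf15, Fgf16 and Fgf20 had no read at all. Fgf3, Fgf4 and Fgf15 lie within 102 kb of Ccnd1 on chromosome 7, and Ccnd1, the cyclin D1 gene, rose from a mean of 61.7 to 129.7 FPKM (limma-trend adjusted p = 0.000503) while its 3 neighbours had no read in any sample.

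Of the PDGF receptors Pdgfra fell, with Pdgfrb uncalled. Pdgfra (chr5:75152292-75198215, plus strand), the receptor for PDGF-A and PDGF-C and a marker of mesenchymal progenitors, stood at 43.4, 37.0 and 38.3 FPKM in the controls and 20.1, 20.8 and 20.4 FPKM with metformin. The groups were far apart, with the lowest control at 37.0 FPKM. The mean fell from 39.6 ± 3.42 to 20.4 ± 0.35 FPKM (SD, n = 3), 0.516 times the control, with a log2 fold change of -0.92 (SE 0.09, limma-trend adjusted p = 0.000779), and the call held in 6 of 6 fits without 1 sample. Pdgfrb, the receptor for PDGF-B and PDGF-D, had 62.5, 74.0 and 79.2 FPKM in the controls and 75.8, 80.6 and 75.4 FPKM with metformin. These overlapped, and the log2 fold change was 0.11 (95% interval -0.16 to 0.37, limma-trend adjusted p = 0.528). Pdgfra made up 41.0%, 33.3% and 32.6% of the sum of both receptors in the controls and 20.9%, 20.5% and 21.3% with metformin (exact permutation test, two-sided, p = 0.1, the smallest possible). Control replicate 1 had the highest share, and the groups did not overlap. The sum of both receptors was 111 ± 5.83 FPKM in the controls and 97.7 ± 3.21 FPKM with metformin (SD, n = 3), with p = 0.1 in the same exact permutation test. Pdgfrl, a secreted relative of the receptors with no kinase, had 3.35, 2.75 and 1.81 FPKM in the controls and 4.0, 4.29 and 4.40 FPKM with metformin, which did not overlap (log2 fold change 0.55, 95% interval 0.16 to 0.94, limma-trend adjusted p = 0.0545).

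No PDGF ligand passed the test among the 3 that could be tested. Pdgfa had a log2 fold change of -0.19 (95% interval -0.50 to 0.12), Pdgfc -0.06 and Pdgfd 0.11, with limma-trend adjusted p-values of 0.343, 0.731 and 0.68. Their means in the controls were 45.4, 32.0 and 15.5 FPKM. Pdgfb, the ligand for both receptors, was below the filter. It had 11, 22 and 30 reads in the controls and 53, 65 and 54 reads with metformin. Every metformin library had more reads of it, with a scaled ratio of 2.63 (counting interval 1.96 to 3.57, without the spread between replicates). When all genes were tested with no filter, Pdgfb had an adjusted p of 0.0299 in limma-trend, where 5.77% of 24801 genes were higher and 3.56% lower.

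In the EGF family 3 of 10 ligands passed the filter, and all 3 rose, where 13.2% of all tested genes did, while the 2 receptors that passed it were not called. Hbegf (chromosome 18), heparin-binding EGF-like growth factor and a ligand of Egfr and Erbb4, had 1.18, 1.37 and 0.815 FPKM in the controls and 2.34, 2.71 and 2.79 FPKM with metformin. The groups did not overlap. Its mean went from 1.12 ± 0.28 to 2.61 ± 0.242 FPKM (SD, n = 3), 2.33-fold, with a log2 fold change of 0.78 (SE 0.13, limma-trend adjusted p = 0.0063), and the call held in 6 of 6 fits without 1 sample. Ereg (chr5:91074622-91093646, plus strand), epiregulin, another ligand of Egfr and Erbb4, had 3.14, 1.54 and 1.28 FPKM in the controls and 4.57, 4.27 and 4.68 FPKM with metformin. Control replicate 1 stood between the other controls and the metformin samples, which were all higher. The log2 fold change was 0.93 (SE 0.22, limma-trend adjusted p = 0.0254). Without control replicate 1 the adjusted p was 0.000137, and without any 1 of the other 5 samples it was 0.0592 to 0.0902, so the call was lost in those 5 fits and also with no filter (0.0708).

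Nrg1 (chr8:31814551-32884029, minus strand), neuregulin 1, the ligand of Erbb3 and Erbb4, had 0.593, 0.451 and 0.487 FPKM in the controls and 1.18, 1.12 and 0.982 FPKM with metformin, on 98 to 252 reads per sample. All metformin samples were above all controls. The mean was 0.510 ± 0.0735 against 1.09 ± 0.10 FPKM (SD, n = 3), 2.14-fold, and the log2 fold change was 0.47 (SE 0.10, limma-trend adjusted p = 0.0169). The call was lost without metformin replicate 1 (0.0828), 2 (0.0755) or 3 (0.0506) and without control replicate 2 (0.0542). On the recovered reads, voom gave log2 values of 1.24 for Hbegf, 1.31 for Ereg and 1.11 for Nrg1.

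The receptors for these ligands were unevenly represented. Egfr stood at 3.26, 3.13 and 2.96 FPKM in the controls and 3.77, 3.76 and 3.38 FPKM with metformin, with a log2 fold change of 0.17 (95% interval -0.03 to 0.37, limma-trend adjusted p = 0.191), and the groups did not overlap. Erbb2, the partner receptor with no known ligand of its own, had 11.9 ± 1.8 and 11.6 ± 0.919 FPKM (SD, n = 3), with a log2 fold change of -0.02 (95% interval -0.31 to 0.27, limma-trend adjusted p = 0.926). Erbb3 had at most 5 reads in a sample and Erbb4 had none. Transcripts of both neuregulin receptors were thus at or near the limit of detection in the samples where Nrg1 was measured.

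Of the ligands under the filter, Btc, betacellulin, had 15, 3 and 7 reads in the controls and 18, 22 and 14 reads with metformin, and Egf had 38, 38 and 33 against 26, 24 and 22. The scaled read ratios were 2.08 (counting interval 1.27 to 3.49) and 0.637 (0.466 to 0.865), and neither was called by limma-trend with no filter (adjusted p = 0.282 and 0.164). In FPKM the Btc groups overlapped and the Egf groups did not. Nrg4 had 2 to 18 reads per sample. Areg reached 5 reads, Tgfa had fewer than 10 in every sample, and Nrg2 and Nrg3 had none. Ereg, Areg and Btc lie within 328 kb on chromosome 5, and of the 3 only Ereg passed the filter.

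**Figure D3:**
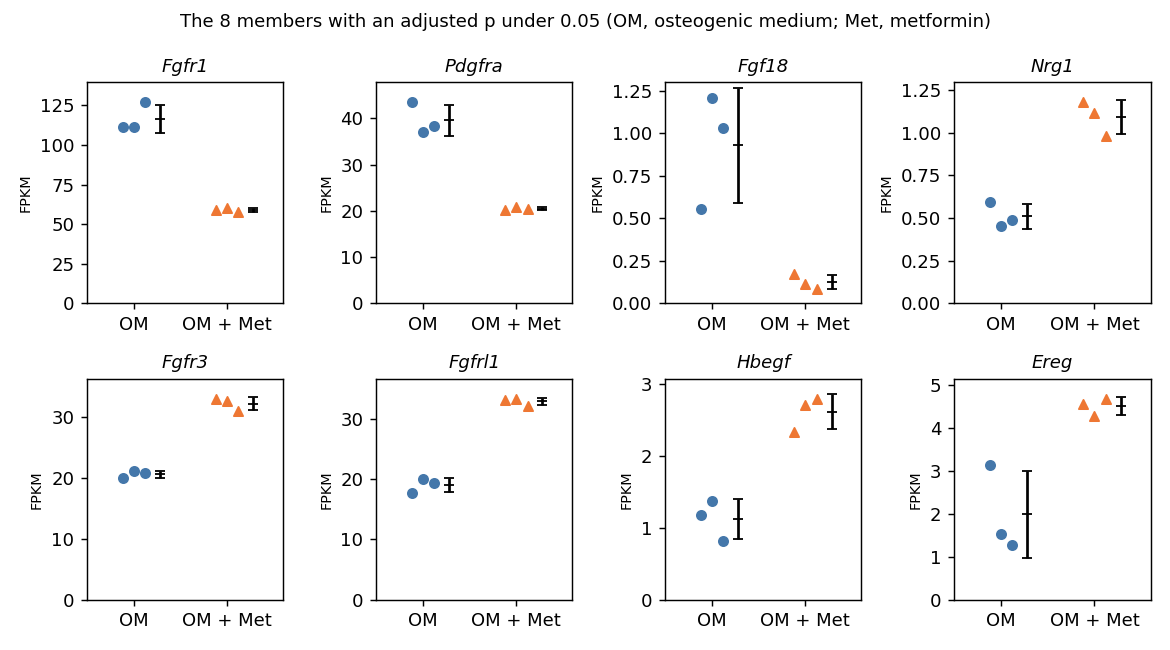
Level in FPKM of the 8 called genes in each sample (points) with the mean and SD (bars) for osteogenic medium (OM) and osteogenic medium with metformin (Met). No panel has overlapping groups, and control replicate 1 of Ereg, at 3.14 FPKM, lies nearest to the metformin samples.

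No VEGF family member was called. Vegfa, the main driver of vessel growth, had 22.0, 29.4 and 34.1 FPKM in the controls and 34.9, 35.4 and 34.4 FPKM with metformin. The metformin samples were all higher, by less than 1 FPKM from control replicate 3, and the log2 fold change was 0.31 (95% interval -0.07 to 0.68, limma-trend adjusted p = 0.213). Vegfb, which binds Flt1, had 24 ± 5.79 and 32.2 ± 2.03 FPKM (SD, n = 3), also without overlap (log2 fold change 0.43, limma-trend adjusted p = 0.14). Vegfd, a ligand of Flt4, had a log2 fold change of 0.29 (limma-trend adjusted p = 0.172), with overlapping groups. Flt1, a VEGF receptor that also exists in a soluble form, had 8.29 ± 1.09 and 9.09 ± 0.265 FPKM (SD, n = 3) and a log2 fold change of 0.12 (95% interval -0.12 to 0.37, limma-trend adjusted p = 0.437). Kdr, the main signalling receptor for VEGF-A, was limited to 1 read in any library, and Flt4 had none. Vegfc had 5 to 19 reads per sample and Pgf fewer than 10. Of the 3 VEGF receptors among the members, only Flt1 was thus above the filter beside Vegfa, Vegfb and Vegfd. The VEGF coreceptors Nrp1 (20.1 to 25.9 FPKM) and Nrp2 (37.7 to 61.0 FPKM), which are not members, were also above it.

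Among the other pairs, Kitl, Angpt1, Angpt4 and Met passed the filter on low values, and none of the 4 was called. Kitl, stem cell factor, had 30.4, 17.9 and 16.0 FPKM in the controls and 13.3, 12.7 and 14.2 FPKM with metformin, while its receptor Kit had no read. The Kitl groups did not overlap, and control replicate 1 was far above the others (log2 fold change -0.59, 95% interval -1.12 to -0.05, limma-trend adjusted p = 0.112). Angpt1, the activating ligand of Tek, had 1.39, 0.724 and 0.674 FPKM in the controls and 0.397, 0.282 and 0.375 FPKM with metformin, below every control (log2 fold change -0.50, limma-trend adjusted p = 0.069). Angpt4 had a log2 fold change of 0.10 (limma-trend adjusted p = 0.624), Angpt2 had 15 to 36 reads per sample, and Tek had at most 1 read. Met, the receptor of hepatocyte growth factor, had 1.45, 0.875 and 0.649 FPKM in the controls and 1.72, 1.40 and 1.52 FPKM with metformin, which overlapped (log2 fold change 0.37, limma-trend adjusted p = 0.148). Its ligand Hgf had 3, 3 and 5 reads in the controls and 23, 16 and 18 reads with metformin, more in every metformin library. The scaled ratio was 4.99 (counting interval 2.59 to 10.6) and limma-trend with no filter gave an adjusted p of 0.0323. Pdgfra, Kit and Kdr lie within 826 kb on chromosome 5, where Pdgfra was the only 1 of the 3 above the filter.

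**Figure D4:**
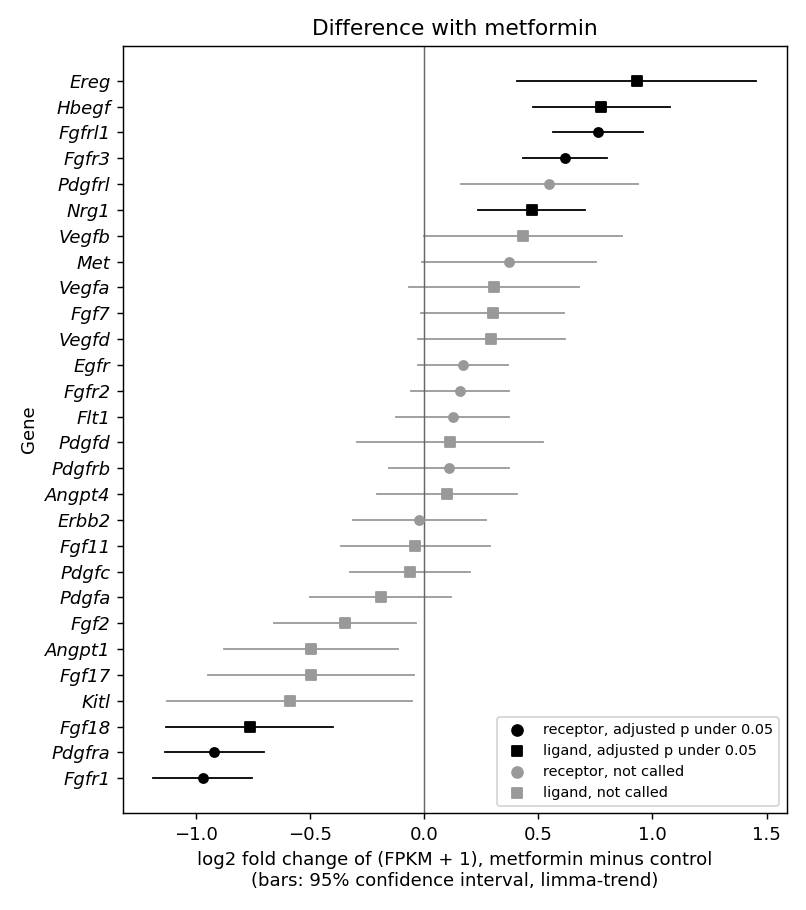
Log2 fold change of FPKM + 1, metformin minus control, for the 28 tested genes, with 95% intervals from limma-trend and black for an adjusted p under 0.05. The 3 called genes on the left run from -0.97 for Fgfr1 to -0.76 for Fgf18, and the 5 on the right reach 0.93 for Ereg, which has the widest interval of the called genes.

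Several uncalled genes depended on control replicate 1. Without it 13 of the 28 genes were higher and 5 lower (limma-trend), where 23.4% and 20.4% of all tested genes were. The 10 genes added were Fgf7 (adjusted p = 0.0019), Vegfd (0.00178), Pdgfrl (0.00657), Met (0.00905), Kitl (0.015), Fgf17 (0.0165), Fgfr2 (0.0173), Pdgfd (0.0295), Vegfb (0.0354) and Flt1 (0.049). The estimates themselves moved by over 1.5 times for 4 of them. Without that control the log2 fold change of Kitl was -0.32 in place of -0.59 and that of Vegfb 0.22 in place of 0.43, while Pdgfd went from 0.11 to 0.30 and Flt1 from 0.12 to 0.21. The correction for GC content added 7, which were Angpt1, Fgf17, Fgf2, Fgf7, Kitl, Pdgfrl and Vegfb. Fgfr1, Pdgfra, Fgfr3, Fgfrl1 and Hbegf were called in every fit without 1 sample. Exons of Fgfr1, Pdgfra, Fgfr3, Ereg and Nrg1 overlap exons of genes on the opposite strand. Fgfr3 also shares near-identical sequence with G630022F23Rik, and Fgfr2 and Hgf overlap Ctbp2 and Gm43489 on the same strand. The same kind of overlap on the opposite strand holds for Pdgfa, Pdgfc, Erbb2, Angpt1, Fgf2, Egf and Nrg4, and near-identical sequence is shared by Fgf2 with Gm43439 and Nudt6, by Angpt1 with Gm17473, by Egf with 6330410L21Rik and Gm42697, and by Nrg4 with Fbxo22. The strand setting of the counting is not given in the sources used here, so reads of these pairs may be shared.

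**Figure D5:**
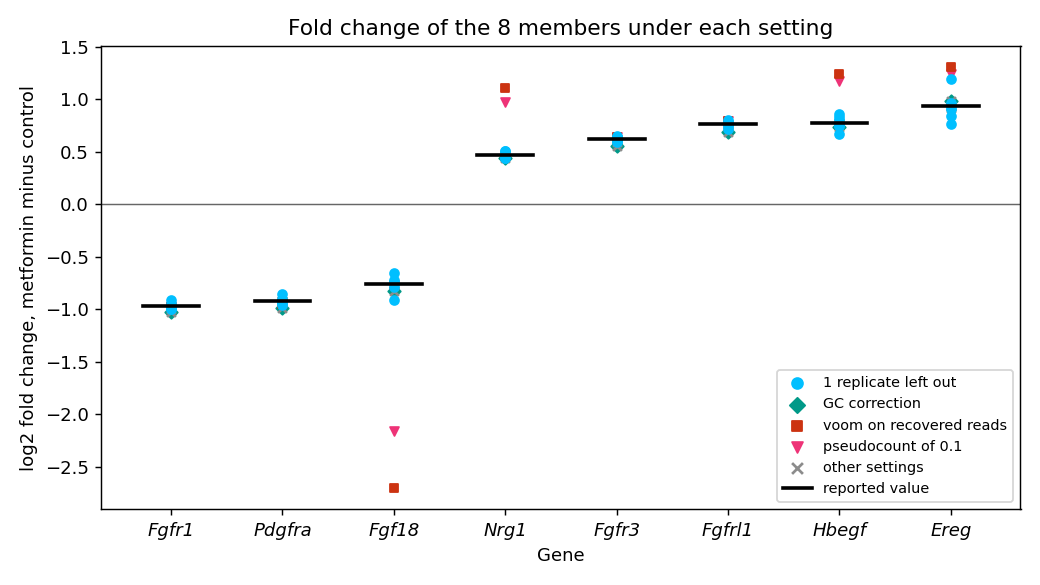
Log2 fold change of the 8 called genes, metformin minus control, as reported (black bars) and under the other settings (points). No point crosses 0, and Fgf18, at -0.76 as reported and -2.70 with voom, has the widest spread.

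Genes that act around the receptors were counted from lists compiled with earlier results of these data known. Each count is to be read against all tested genes, of which 13.2% were higher, 9.28% lower and 22.5% called either way, with a median log2 fold change of 0.0053. Among 18 cofactors of FGF signalling 13 were tested, with 4 higher and 2 lower and a median log2 fold change of 0.14. The higher ones were Sulf2, an enzyme that trims heparan sulfate (0.89, limma-trend adjusted p = 0.000692), Hs6st1, a heparan sulfate 6-O-sulfotransferase (0.72, 0.0328), Sdc4, a heparan sulfate proteoglycan (0.54, 0.00972), and Flrt3, a membrane protein that binds FGF receptors (0.48, 0.0129). The 2 lower ones were Sdc1 (-0.44, limma-trend adjusted p = 0.039) and Ext1 (-0.31, 0.0287), each called in 1 of 6 fits without 1 sample. Of 13 genes for the shedding of EGF ligands 9 were tested, 3 rose and none fell, with a median of 0.27. Timp3, an inhibitor of the shedding proteases, went from 4.42 to 17.7 FPKM (log2 fold change 1.79, limma-trend adjusted p = 0.000206), and the proteases Adam12 (1.29, 0.000692) and Adam9 (0.62, 0.0119) rose with it. The list thus held both an inhibitor and proteases among the genes that rose.

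Of 14 coreceptors and regulators of VEGF and angiopoietins 9 were tested, with 3 higher (Nrp2, a VEGF coreceptor, Egln1, an oxygen-sensing prolyl hydroxylase, and Angptl2) and 1 lower (Vhl, which targets HIF for degradation). Their log2 fold changes were 0.49, 0.41, 0.36 and -0.55, with limma-trend adjusted p-values of 0.0155, 0.0404, 0.0251 and 0.0163. The median of the 9 was 0.18. Of 35 receptor adaptors 30 were tested, with 1 higher and 2 lower and a median of -0.04, so that fewer of them were called than the 22.5% of all tested genes would give. Grb10, an adaptor that damps insulin and growth factor receptors, rose by 0.95 on the log2 scale (limma-trend adjusted p = 0.00945). Cblb, a ubiquitin ligase for activated receptors, fell by 0.72 (0.00192), and Ptpn1, a phosphatase that acts on receptors, fell by 0.51 (0.015). Of 22 other receptor tyrosine kinases 11 were tested, with a median of 0.13 and with Ddr2, a collagen receptor, higher (0.68, limma-trend adjusted p = 0.0133) and Mertk lower, from 65.0 to 31.0 FPKM (-1.04, 0.000286).

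Of 25 genes of the RAS and ERK cascade 21 were tested, 3 were higher (Rps6ka2 at 0.39, Rras2 at 0.38 and Rps6ka1 at 0.35) and 1 was lower (Rasa1, a RAS GTPase activator, at -0.43), with limma-trend adjusted p-values of 0.0266, 0.0119, 0.0366 and 0.0459. Their median was 0.14, and both counts were near or below the shares of all tested genes, 13.2% and 9.28%. Among 24 transcripts that respond to ERK 22 were tested, with 11 higher and 1 lower and a median log2 fold change of 0.50, against 13.2% and 9.28% of all tested genes. Fos, an immediate-early transcription factor, went from a mean of 11.4 to 102.4 FPKM (3.11, limma-trend adjusted p = 0.000444). Ier3 (1.89, 0.000165), Egr1 (1.28, 0.0138) and Ier2 (1.17, 0.00196) also rose. Spry1, a feedback inhibitor of receptor signalling, fell by 0.90 (0.000889), while Dusp5 rose by 1.15 (limma-trend adjusted p = 0.000397). Dusp6, an ERK phosphatase, had a log2 fold change of -0.02 and was not called. Dusp4, Dusp7, Spry2, Spry4, Spred1, Spred2 and Spred3 were tested and not called either. Of the genes named from these lists, 24 were taken by size of change. In the fits without metformin replicate 1, 2 or 3, 15, 14 and 13 of these 24 genes lost their call. Without control replicates 2 and 3, 6 and 2 did. Timp3, Adam12, Fos, Ier3, Ier2, Sulf2, Mertk, Grb10 and Cblb kept theirs in 6 of 6 fits.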

How the data were processed

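RNA sequencing of 6 samples was used. The authors deposited 1 table of normalized gene values, which prove to be FPKM, since each value times the gene length is a whole multiple of 1 step per sample. The submitters' processing notes list Bowtie 0.12.2, while the counting tool and strand setting are not given in the sources used here. Identifiers and coordinates match GENCODE M21 (GRCm38) for 61 of the 64 members.

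Groups came from the sample labels. The groups were compared by limma-trend (limma 3.58.1, R 4.3.3) on log2(FPKM + 1), keeping genes with a mean of 0.5 FPKM or more, with Benjamini-Hochberg adjustment over all 12681 and a threshold of 0.05. This scale understates changes of low genes. Shares were compared by exact permutation (scipy 1.17.1). The main fit was tested on simulated data of 12681 genes, where 186 of 200 changed genes were recovered and 21 unchanged genes were called. That simulation used 1 common spread for all genes and no outlying control, unlike these data. Alternatives were a pseudocount of 0.1, other scaling, other filters, voom on recovered reads, a GC correction (spline, 5 degrees of freedom), the replicate block and leaving out each sample. Near-identical sequence meant 95% identity over 200 bases (BLAST+ 2.17.0). All tested members were named, and from each pathway list up to 4 called genes by size of change. Ccnd1, Sdc1, Ext1, Nrp1 and the Dusp, Spry and Spred genes were named after their values were seen. Members and lists were chosen with earlier results of these data known.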

Additional observations from a re-analysis of the deposited data

How the results depend on the processing

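Counts of calls moved more than directions did. Genes higher with metformin numbered 1670 and 938 to 2969 with 1 sample left out, and genes lower numbered 1177 and 495 to 2590, with 2969 and 2590 reached without control replicate 1 and 938 without metformin replicate 1. The GC correction gave 2433 lower genes. Members higher numbered 5, 8 after the GC correction and 3 to 13 with 1 sample left out, and members lower 3, 7 after the GC correction and 2 to 5. Pathway genes called numbered 34, and 15 to 64 with 1 sample left out. The sign turned only for uncalled members, with 1 sample left out: Pdgfc (-0.14 to 0.041), Pdgfd (-0.034 to 0.30), Erbb2 (-0.10 to 0.089) and Fgf11 (-0.11 to 0.10). The cause was not tested.

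The replicate numbers are not stated to pair the samples, and deviations of same-numbered samples had correlations of -0.05, 0.00027 and -0.05. No sample correlated best with its own number. With the replicate block 698 genes were lower and 1161 higher, 4 members were higher and 3 lower, and with the block and the GC correction 1888 genes and 7 members were. Nrg1 had an adjusted p of 0.0621 (limma-trend) with the block. The deposited values are FPKM, and DESeq2 was not run on the recovered reads, for which only voom was used. With 9 to 66 summed reads per group for Fgf18, depth limits what can be said of the low ligands.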
